A study of Mus musculus with 8 samples.

Results

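The 8 genes described here encode ligands, receptors and a feedback inhibitor of the epidermal growth factor (EGF) receptor family, and are 8 of the 14126 genes in a table of bulk RNA sequencing of mouse pancreatic islets. They are Areg, Hbegf, Tgfa and Btc, which encode ligands, Egfr, Erbb2 and Erbb3, which encode receptors, and Errfi1, which encodes an inhibitor. They were chosen by gene symbol and from the difference between KO and WT values in the same 8 libraries, above all that of Areg. The KO and WT values of these genes are therefore a description, given with their spread and without a test.

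All mice were NOD/ShiLtJ, which are prone to autoimmune diabetes, and were 7 weeks old. The KO group is 4 libraries with the genotype written IRE1αβ-/-, the study's name for deletion of the endoplasmic reticulum stress sensor IRE1α (gene Ern1) in the insulin-secreting beta cells. The WT group is 4 libraries with the genotype IRE1αfl/fl, in which Ern1 carries recombination sites on both copies. Tamoxifen, a ligand of the oestrogen receptor, is recorded for both groups as the means to switch on Cre recombinase. Each group came from 4 mice, per the series' design text. The labels name neither the promoter that drives Cre nor whether WT mice carried it. The question put to the 8 genes is how their RNA in whole islets differed with that genotype at this age.

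EGF family ligands are made as membrane-anchored precursors, and metalloproteases on the cell surface release the active growth factor. Ligand binding pairs the receptors, whose kinase domains then signal through RAS and the kinase ERK and through PI3K and AKT. Signalling switches on its own brakes, among them the receptor inhibitor Errfi1 (also called Mig6) and the Sprouty, Spred and Dusp proteins that act on RAS and ERK. Amphiregulin, encoded by Areg, is a low-affinity ligand of EGFR that is known to be induced by oestrogen in breast tissue and by cyclic AMP. In islets, EGF receptor signalling is known for its part in beta cell growth.

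The values are counts that the authors normalized and rounded to whole numbers, and they summed to between 32024139 and 34858983 per library. The depth of sequencing behind them is unknown, and the number of libraries limits the precision. Ern1 had values of 6922 to 7390 in KO and 4500 to 5549 in WT. That total over the gene was not lower in KO and cannot check the labels, since it holds reads from outside the deleted part, so all directions below rest on the labels. The beta cell markers summed to between 2484560 and 3417383 in KO and between 5263416 and 5902332 in WT, and the 6 alpha cell markers to between 1915845 and 2617149 in KO and between 400546 and 1042260 in WT. Of 8 beta cell markers 5 fell and none rose, and all 6 alpha cell markers rose (limma-trend, adjusted p under 0.05). All 4 delta and PP cell markers rose by the same test, with sums between 240887 and 347544 in KO and between 93241 and 155647 in WT. In whole islets, fewer cells of a type and less RNA per cell cannot be told apart. The part of these cell types in the values of the 8 genes was not tested. Libraries 1 and 2 of each group stood apart from libraries 3 and 4: the 8 immediate early genes, which respond within minutes to stimulation or handling, summed to between 6034 and 19393 in the first set and between 128792 and 276396 in the second. No label records a batch. KO replicate 1 also stood apart, in ductal genes, with values given beside the genes it touches.

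Areg separated the groups more widely than the other ligands. The 4 KO replicates had 652, 341, 783 and 922 normalized counts of Areg, against 2, 0, 6 and 4 in the 4 WT replicates. The lowest KO library was at 341 and the highest WT library at 6, so the groups lay far apart. The means were 674.5 ± 248.2 in KO and 3.0 ± 2.6 in WT (SD, n = 4 each). On the log2(value + 1) scale the difference was 7.63 ± 0.59 (limma's standard error). It was 8.71 with a pseudocount of 0.1 and 6.38 with a pseudocount of 5, because the WT values are close to 0. Within libraries 1 and 2 it came to 8.09 and within libraries 3 and 4 to 7.17, and leaving out 1 library at a time kept it between 7.07 and 8.01.

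Areg (ENSMUSG00000029378) lies on chromosome 5, from 91139599 to 91148432 on the plus strand of GRCm38, and is annotated as protein coding. Btc lies 208.8 kb away in the same cluster of ligand genes, which also holds Ereg and Epgn, not analysed here. Of 13 protein-coding genes within 500 kb of Areg, 6 were measured. Besides Btc, Mthfd2l, encoding a mitochondrial folate enzyme 118.2 kb away, had values of 160, 161, 158 and 168 in KO and 99, 108, 81 and 118 in WT. Parm1, encoding a membrane mucin 369.2 kb away, had values of 902, 767, 1203 and 1318 in KO and 277, 253, 390 and 424 in WT. For both genes every KO library was above every WT library, as for 13.6% of the 14121 genes tested. Rassf6, 498.9 kb away at the edge of the window, lay between 329 and 371 in KO and between 338 and 376 in WT, so its groups overlapped. These neighbours were picked by position, and their values were seen before they were named. The chemokine genes Cxcl1 and Cxcl2 followed the set of libraries, with values of at most 21 in libraries 1 and 2 of either group and at least 287 in libraries 3 and 4.

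The windows of 160 bases before the annotated start sites are shown for Areg and Errfi1, whose promoters share 2 motifs, and for Egfr, the receptor of which Areg is a ligand, which holds neither. They are from RefSeq promoters of build GRCm38.p6, chr5:91139439-91139598 for Areg, chr4:150854910-150855069 for the downstream start of Errfi1 and chr11:16752043-16752202 for Egfr, all on the plus strand. Capitals mark the full cAMP response element TGACGTCA, which reads the same on both strands, and the TATA box TATAAA.
Areg: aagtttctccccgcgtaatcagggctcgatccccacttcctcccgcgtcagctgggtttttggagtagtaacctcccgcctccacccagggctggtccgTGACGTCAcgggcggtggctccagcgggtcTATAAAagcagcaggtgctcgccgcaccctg
Errfi1: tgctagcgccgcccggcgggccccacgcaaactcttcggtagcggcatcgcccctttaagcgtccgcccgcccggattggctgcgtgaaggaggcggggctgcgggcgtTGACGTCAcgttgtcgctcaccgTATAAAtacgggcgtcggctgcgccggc
Egfr: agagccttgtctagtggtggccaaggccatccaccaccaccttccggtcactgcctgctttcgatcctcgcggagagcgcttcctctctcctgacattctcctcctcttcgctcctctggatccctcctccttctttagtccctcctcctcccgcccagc
The cAMP response element begins 61 bases before the Areg start and 51 bases before the Errfi1 start, and the TATA box 31 and 28 bases before them. Of 32851 promoter windows of this length, 1.39% held TGACGTCA, 8.02% held TATAAA on either strand, and 0.07% held both. The windows of Areg, Errfi1, Egfr, Erbb2, Tgfa and Btc held neither the AP-1 letters TGANTCA (4.53% of windows) nor the full palindromic oestrogen response element (0.033% of windows). The upstream start of Errfi1 held none of the 4 motifs, and Erbb3 and Hbegf were not searched. These matches are a description of letters in a window.

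Esr1, which encodes oestrogen receptor alpha, differed in the same libraries. It had values of 4081, 6584, 5609 and 9052 in KO replicates 1 to 4, against 15, 15, 29 and 28 in WT. These values are totals over the gene and do not tell which part of Esr1 the reads came from. Whether RNA for the whole receptor differed is therefore unknown. The part of Esr1 in the level of Areg was not tested.

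Among the genes whose values were most like those of Areg over the 8 libraries were Tspan12, Camk2d, Kdm7a and Pgrmc1, out of 13084 genes with a mean value of at least 50. Their Pearson r with Areg on the log2 scale was 0.997, 0.995, 0.995 and 0.992, and Spearman's rho was 0.976 for the first 3 and 0.952 for Pgrmc1. These r values over 8 libraries in 2 separate groups describe likeness and carry no p. Their differences were much smaller than that of Areg. Tspan12, a tetraspanin gene, averaged 1071 ± 55.3 in KO and 526.0 ± 41.6 in WT, and Pgrmc1, encoding a membrane haem-binding protein, 4752 ± 190.1 in KO and 3354 ± 202.7 in WT (SD, n = 4 each).

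The other ligand genes differed less than Areg, and in the same direction. Tgfa encodes transforming growth factor alpha, a high-affinity EGFR ligand. It had values of 681, 625, 667 and 825 in KO and 487, 414, 459 and 384 in WT, and no KO library was as low as a WT library. The log2 difference was 0.68 ± 0.12, with means of 699.5 ± 87.0 in KO and 436.0 ± 45.9 in WT (SD, n = 4 each).

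Hbegf encodes heparin-binding EGF-like growth factor, a ligand of EGFR and ERBB4. Its values were 497, 420, 950 and 703 in KO and 253, 209, 698 and 504 in WT. The groups overlapped, and within each group libraries 3 and 4 were higher than libraries 1 and 2. In libraries 1 and 2 the log2 difference was 0.99, in libraries 3 and 4 it was 0.46, and both KO libraries were above both WT libraries in each set. Over all 8 libraries it was 0.72 ± 0.40.

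Btc encodes betacellulin, named for its isolation from a beta cell tumour line. It had low values of 143, 48, 53 and 48 in KO and 21, 21, 8 and 30 in WT. The groups did not overlap, but KO replicate 1 lay far above the other KO libraries. The log2 difference was 1.78 ± 0.49, and 1.40 without that library.

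The receptor genes went different ways. Egfr, the receptor of all 4 ligands, had values of 633, 598, 812 and 653 in KO, against 2288, 1970, 2118 and 1684 in WT. The highest KO library, at 812, lay well under the lowest WT library, at 1684. The means were 674.0 ± 94.8 in KO and 2015 ± 256.1 in WT (SD, n = 4 each), a ratio of 0.334 and a log2 difference of -1.58 ± 0.13. Libraries 1 and 2 gave -1.79 and libraries 3 and 4 gave -1.37, and it stayed between -1.67 and -1.52 without any 1 library. Egfr stood out among the 8 genes as the one with every KO library below every WT library. Ins1, an insulin gene, averaged 828271 ± 173400 in KO and 1877298 ± 100561 in WT. The part of the beta cell markers in the Egfr difference was not tested.

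Erbb3 encodes a receptor with little kinase activity that signals through its partners. It had values of 1040, 406, 687 and 540 in KO and 249, 253, 347 and 351 in WT, with no overlap. The log2 difference was 1.09 ± 0.27, and 0.84 without KO replicate 1. Erbb2 encodes the receptor that binds no ligand and acts as the preferred partner of the others. It had values of 350, 76, 75 and 65 in KO and 36, 56, 46 and 48 in WT. The groups did not overlap, and the other 3 KO libraries lay just above WT. The log2 difference was 1.201 ± 0.50 with KO replicate 1 and 0.63 without it. The annotated exons of Erbb2 share 9 bases with Mien1 on the other strand, and those of Tgfa share 118 with Gm43917. The other 6 genes share none.

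KO replicate 1 was set apart by genes of the ductal epithelium as well as by Erbb2, Btc and Erbb3. Its value was 4.86 times the mean of the other 3 KO libraries for Erbb2, 2.88 times for Btc and 1.91 times for Erbb3. For Erbb4, the fourth receptor gene, which was not among the 8, the ratio was 5.47. The ratio was 13.3 for Krt19, 4.40 for Muc1, 3.79 for Sox9 and 3.74 for Cftr. Of 9 ductal markers 5 were at least 2 times the mean of the other KO libraries there, against 2 of the 8 genes and 1.93% of all genes tested. The summed ductal markers ranged from 19543 to 41181 in KO and from 11647 to 24951 in WT, with the highest value in KO replicate 1. None of the 9 was at 0 throughout, and Spp1, encoding osteopontin, and Muc1 were called higher in KO (limma-trend). The part of ductal cells in the values of Erbb2, Btc and Erbb3 was not tested. For Areg and Egfr the ratio of KO replicate 1 to the mean of the other 3 was 0.956 and 0.92, and the part of ductal cells in them was not tested either.

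**Figure D1:**
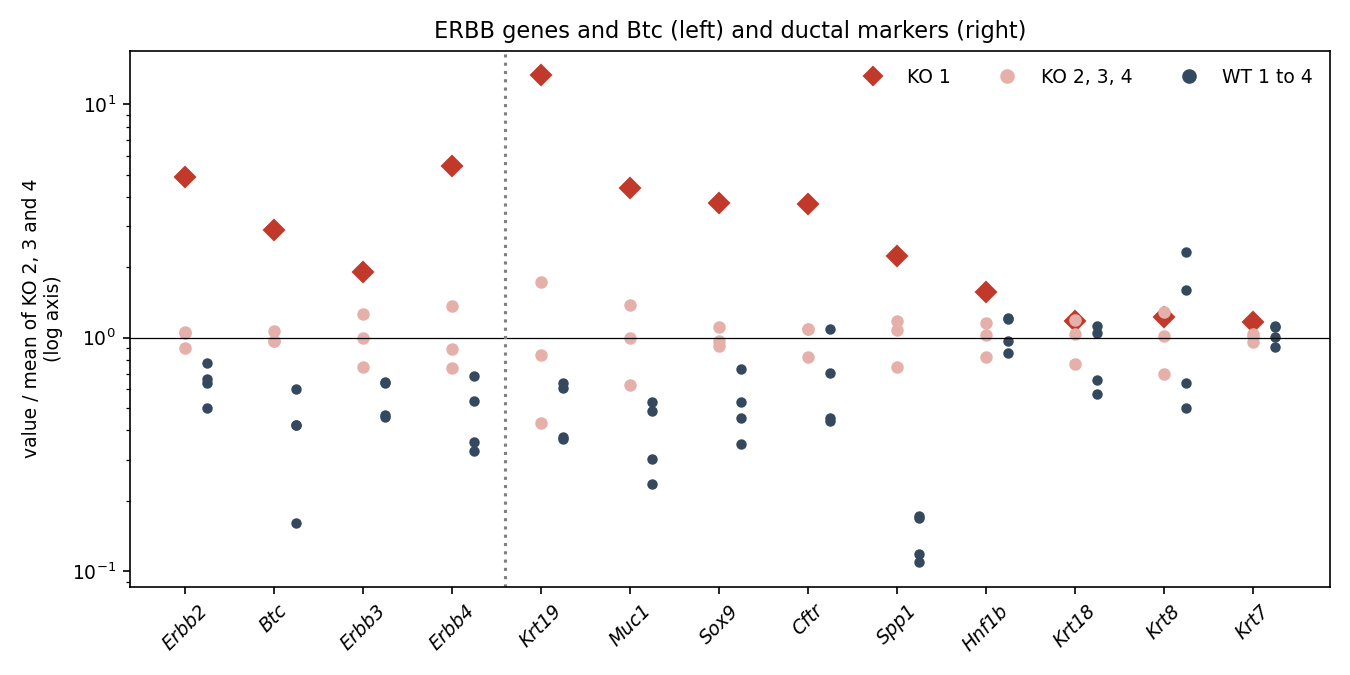
Values relative to the mean of KO replicates 2, 3 and 4 (log axis) for Erbb2, Btc, Erbb3 and Erbb4 at left and 9 ductal marker genes at right. KO replicate 1 (diamonds) lies at 4.86 for Erbb2 and 13.3 for Krt19, above the other KO libraries (light circles) and the WT libraries (dark circles), and close to them for Krt8, Krt18 and Krt7.

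Errfi1 encodes a protein that binds active EGF receptors, blocks their kinase and is itself induced by receptor signalling. Its values were 2604, 1964, 19538 and 22869 in KO and 1702, 1735, 23006 and 26088 in WT. The groups overlapped, since the lowest of libraries 3 and 4, at 19538, was far above the highest of libraries 1 and 2, at 2604. The log2 difference between those sets was 3.53. Within libraries 1 and 2 both KO values were above both WT values, by 0.40 on the log2 scale, and within libraries 3 and 4 both were below, with a log2 difference of -0.21. The 8 immediate early genes showed the same order: 8 of 8 were higher in KO in libraries 1 and 2, and 7 of 8 lower in KO in libraries 3 and 4. Fos, for example, had values of 7668, 6046, 33359 and 43120 in KO and 4964, 2418, 73367 and 99042 in WT. The part of handling in the Errfi1 values was not tested. Among the 8 EGF receptor genes Errfi1 and Hbegf had all of libraries 3 and 4 above all of libraries 1 and 2, a pattern of 7.91% of all genes tested.

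**Figure D2:**
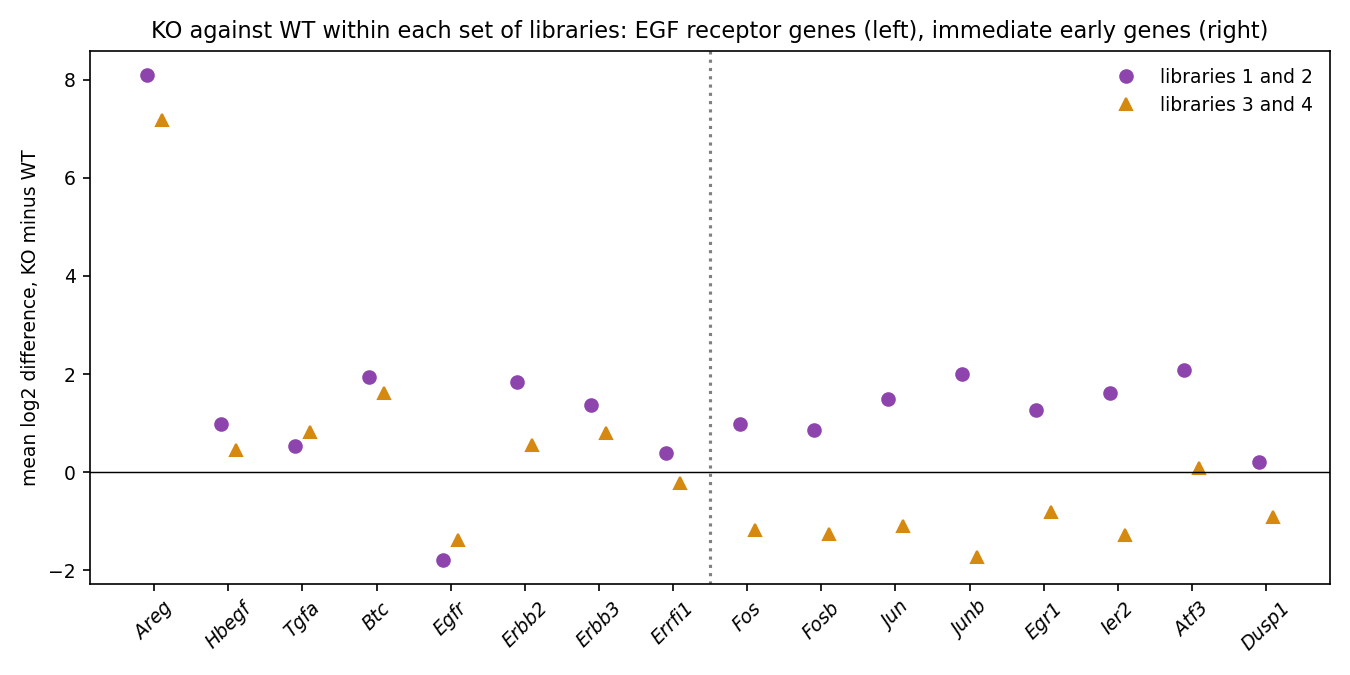
Mean log2 difference between KO and WT libraries, computed within libraries 1 and 2 (circles) and within libraries 3 and 4 (triangles), for the 8 EGF receptor genes at left and 8 immediate early genes at right. Areg lies at 8.09 and 7.17 and Egfr at -1.79 and -1.37, while Errfi1 lies at 0.40 and -0.21 and most immediate early genes lie above 0 in one set and below it in the other.

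Levels were compared between genes per kb of annotated exon, since longer genes collect more reads. In KO libraries the order was Errfi1, with 3279 ± 3074 per kb, then Areg with 555.1 ± 204.3, Hbegf with 132.9 ± 49.1, Erbb3 with 111.1 ± 45.4, Tgfa with 107.8 ± 13.4, Egfr with 59.5 ± 8.4, Erbb2 with 27.2 ± 26.7 and Btc with 16.2 ± 10.3 (SD, n = 4). Among KO neighbours in this order, libraries overlapped except between Areg and Hbegf and between Tgfa and Egfr. In WT libraries Errfi1 had 3666 ± 3696 per kb, Egfr 177.9 ± 22.6, Hbegf 86.1 ± 47.3, Tgfa 67.2 ± 7.1, Erbb3 49.9 ± 9.4, Erbb2 8.9 ± 1.6, Btc 4.4 ± 2.0 and Areg 2.5 ± 2.1. Among WT neighbours, libraries overlapped between Hbegf and Tgfa and between Btc and Areg. Areg was thus second of the 8 in KO and last in WT. Of the summed per-kb level of the 4 ligand genes, Areg made up 59.2% to 72.8% in KO libraries and 0% to 2.23% in WT libraries.

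Of the 8 genes, 5 had every KO library above every WT library (Areg, Tgfa, Btc, Erbb2 and Erbb3), and Egfr was the reverse. Over all genes tested these shares were 13.6% and 12.3%. By the limma-trend threshold 4 of the 8 were higher and 1 lower, where 11.1% and 9.81% of all genes were called (20.9% in either direction). Since the contrast chose the 8 genes, these counts only describe them. Their median log2 difference was 0.905, beside -0.0008 over all genes tested.

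**Figure D3:**
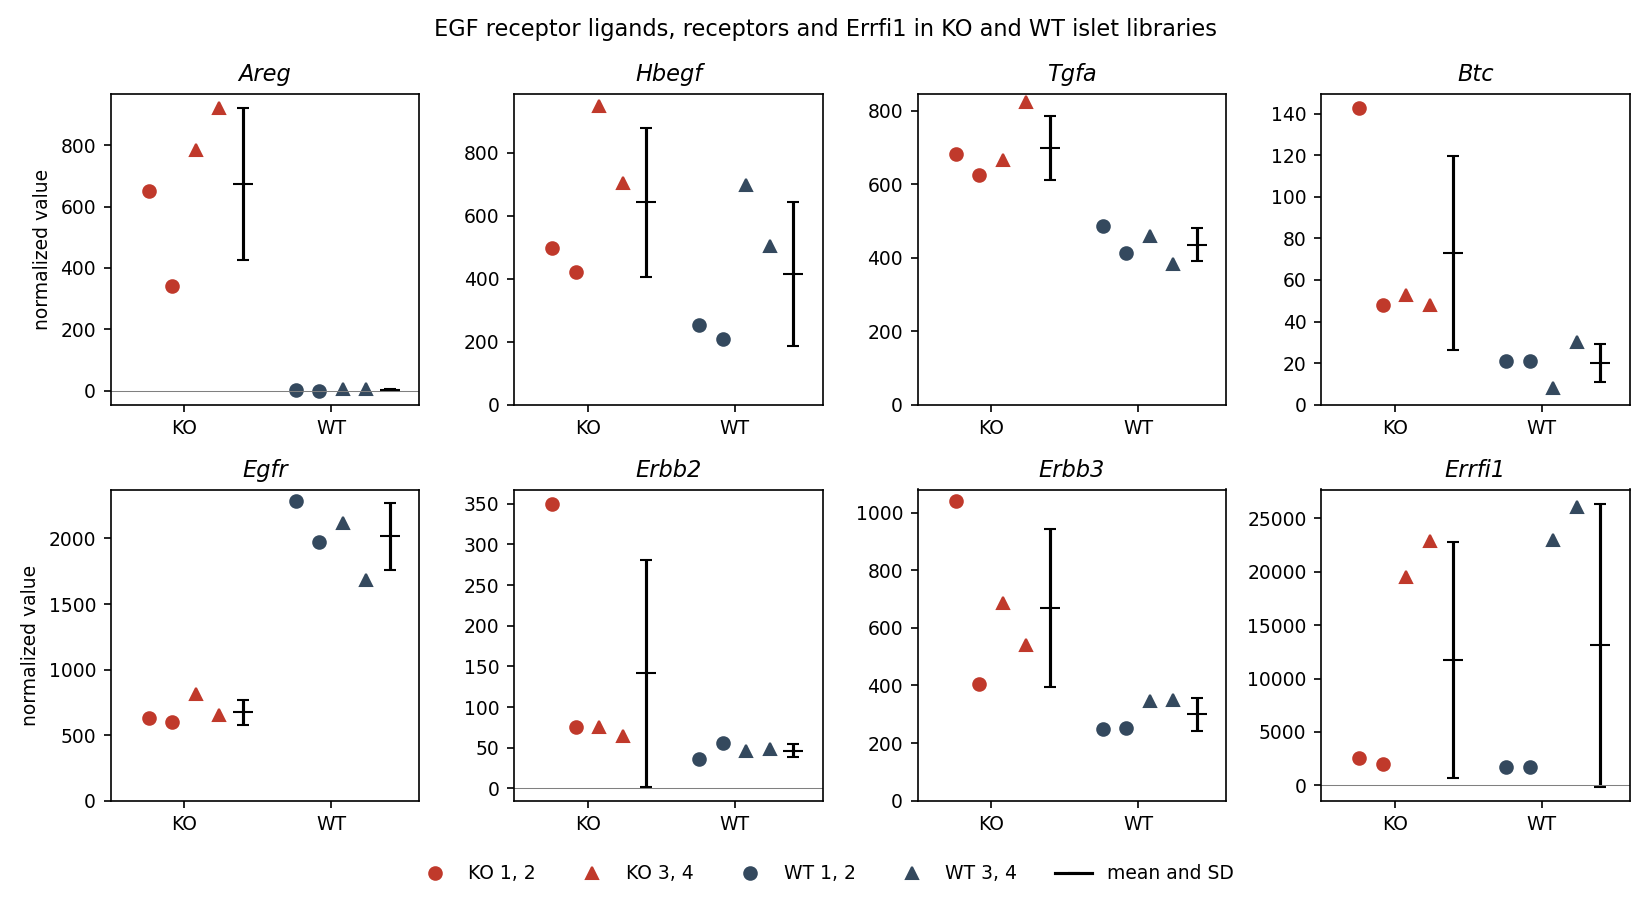
Normalized values (y axis, linear) of the 8 genes in each KO library (left) and WT library (right). Circles are libraries 1 and 2, triangles libraries 3 and 4, and bars the mean and SD of 4. Areg is near 0 in WT and between 341 and 922 in KO, Egfr is lower in KO, KO replicate 1 stands alone for Btc and Erbb2, and Errfi1 follows the set of libraries.

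The rest of the pathway was not used to choose the 8 genes and was tested. Its lists were drawn up with earlier results of these data known, so the counts by list are not independent of those results. Of 95 other genes in 10 lists, 89 were measured, and 11 rose, 7 fell and 71 did not pass (limma-trend, adjusted p under 0.05). Over all genes 11.1% rose and 9.81% fell. With the replicate block, a fit that compares libraries of the same number, 23 rose and 7 fell, beside 14.2% and 11.7% of all genes. Whether libraries of the same number belong together, beyond the split between sets of libraries, was not tested. The median log2 difference of the 89 was 0.16. It lay between 0.04 (without WT replicate 2) and 0.26 (without KO replicate 2) with 1 library left out, and was 0.35 in libraries 1 and 2 alone.

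The largest differences that passed were in 2 genes that ERK is known to switch on, Etv4 and Etv5. Of 10 ERK target genes 3 rose and 7 did not pass, with a median log2 difference of 0.32. That median moved with every choice of 1 library left out. It lay between 0.74 and 0.98 without KO replicate 1 or 2 or WT replicate 3 or 4. Without KO replicate 3 or 4 or WT replicate 1 or 2 it lay between -0.06 and 0.19. In libraries 3 and 4 alone 3 rose and 2 fell, with a median of 0.02, beside 11.5% and 11.5% of all genes. The 2 that fell there were Egr1 and Fos, encoding immediate early transcription factors, with log2 differences of -0.80 and -1.17 (adjusted p = 0.0040 and 0.0062, limma). In libraries 1 and 2 alone 3 of 9 rose and none fell, with a median of 0.97, beside 12.5% and 11.1% of all genes. The 3 were Etv4, Etv5 and Egr1. Egr1 thus went opposite ways in the sets, with a log2 difference of 1.275 in libraries 1 and 2 (adjusted p = 0.0280, limma). Etv5, an ETS family transcription factor gene, had values of 2418, 2423, 2362 and 3217 in KO and 878, 709, 717 and 858 in WT. The groups lay far apart, and the log2 difference was 1.71 ± 0.12 (adjusted p = 8.73e-05, limma-trend). Etv4, of the same family, had values of 78, 74, 53 and 64 in KO and 9, 12, 10 and 15 in WT, a log2 difference of 2.46 ± 0.30 (adjusted p = 8.48e-04, limma-trend). Both were called in libraries 1 and 2 alone and in libraries 3 and 4 alone. Ccnd1, encoding the cell cycle regulator cyclin D1, averaged 3794 ± 243.4 in KO and 3074 ± 175.0 in WT (log2 difference of 0.30 ± 0.08, adjusted p = 0.0217, limma-trend). Its call was lost without KO replicate 2 or 4 or WT replicate 3 (highest adjusted p = 0.0615), and in libraries 1 and 2 alone (adjusted p = 0.0688). Fos, Egr1, Fosl1, Ier3, Myc, Phlda1 and Plaur, the members that did not pass, each had all of libraries 3 and 4 above libraries 1 and 2.

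Several genes of ERK feedback inhibitors rose too. Of 9 measured 4 rose and none fell, with a median log2 difference of 0.79, and with the replicate block 7 rose and none fell. Dusp6, encoding a phosphatase of ERK, had values of 1037, 929, 1272 and 1624 in KO and 371, 321, 623 and 741 in WT. All KO libraries were above all WT libraries, and the log2 difference was 1.29 ± 0.28 (adjusted p = 0.0130, limma-trend). Spred1, Spred2 and Spred3, encoding inhibitors of RAS signalling, rose by 0.79 ± 0.15, 0.74 ± 0.13 and 0.85 ± 0.19 on the log2 scale (highest adjusted p = 0.0131, limma-trend). Dusp4, another ERK phosphatase gene, had values of 956, 809, 1880 and 1968 in KO and 222, 174, 1216 and 824 in WT. Within each group it was higher in libraries 3 and 4, and its log2 difference of 1.55 ± 0.63 did not pass (adjusted p = 0.113, limma-trend) but did with the replicate block (adjusted p = 0.0080). Spry1 and Spry2, encoding Sprouty inhibitors, likewise passed with the replicate block only (adjusted p = 0.0162 and 0.0165, against 0.219 and 0.291, limma-trend). Spry4 and Dusp5 passed in neither fit. Without KO replicate 1 the count for this list was again 4 higher and none lower, beside 7.94% and 6.64% of all genes.

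Genes that carry the signal inside the cell went both ways. Of 20 adaptor and RAS-ERK genes 3 rose, 4 fell and 13 did not pass, with a median log2 difference of -0.02. With 1 library left out the median lay between -0.07 and 0.02, and the count that rose was 1 without KO replicate 4 or WT replicate 2. Shc1, an adaptor that binds phosphorylated receptors, had values of 4052, 4285, 4539 and 4474 in KO and 6663, 6611, 7500 and 6539 in WT. It fell by 0.65 on the log2 scale with a standard error of 0.07 (adjusted p = 5.98e-04, limma-trend). Araf, encoding a RAF kinase, fell by 0.58, and Gab2, a docking protein gene, rose by 0.59 ± 0.13. Gab1, the related docking protein, had a log2 difference of 0.96 ± 0.28 (adjusted p = 0.0400, limma-trend), and its call was lost without KO replicate 1, 3 or 4 or without WT replicate 1 or 2 (highest adjusted p = 0.0997), and in limma without the trend (adjusted p = 0.0567). Ptpn11 and Map2k2, encoding the phosphatase SHP2 and the kinase MEK2, fell. The Map2k2 call was lost in libraries 1 and 2 alone (log2 difference of -0.24, adjusted p = 0.222, limma), and without KO replicate 3 or 4 or WT replicate 2, 3 or 4. Of 10 genes of the PI3K, AKT and PLC relay none rose, and Akt1, Akt2 and Plcg1 fell by 0.41, 0.31 and 0.39 on the log2 scale. The Akt1 call was lost without KO replicate 3 or 4 or WT replicate 2 (highest adjusted p = 0.0676), and with totals free of hormone and mitochondrial genes (adjusted p = 0.0526, limma-trend). In libraries 1 and 2 alone neither Akt1 nor Akt2 passed (adjusted p = 0.181 and 0.0775), and in libraries 3 and 4 alone Plcg1 did not (adjusted p = 0.0510, limma).

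No other ligand, receptor or shedding gene passed the test. The precursor of EGF itself, Egf, averaged 531.8 ± 96.8 in KO and 545.5 ± 142.7 in WT, and Nrg4, a neuregulin gene, 42.3 ± 14.6 in KO and 40.8 ± 5.9 in WT (SD, n = 4 each). Ereg, Epgn, Nrg1, Nrg2 and Nrg3 were not analysed here. Erbb4, the receptor of neuregulins, had values of 184, 46, 25 and 30 in KO and 23, 11, 12 and 18 in WT (log2 difference of 1.66 ± 0.61, adjusted p = 0.0862, limma-trend). The highest value was again in KO replicate 1, and the difference passed with the replicate block (adjusted p = 0.0320). Without KO replicate 1 it was 1.04 (adjusted p = 0.137), and in libraries 3 and 4 alone 0.85 (adjusted p = 0.210, limma). Of 11 genes of ligand shedding none was called, and 2 were higher at an unadjusted p under 0.05. Adam9, encoding one of these proteases, averaged 2165 ± 249.1 in KO and 2168 ± 167.4 in WT (SD, n = 4 each). Timp3, encoding an inhibitor of these proteases, averaged 4350 ± 2117 in KO and 3005 ± 1262 in WT (adjusted p = 0.431, and 0.0057 with the replicate block, limma-trend). Of 9 receptor-level brakes none was called, and 1 was higher at an unadjusted p under 0.05. The most abundant was Usp8, encoding an enzyme that removes ubiquitin from receptors, with 2685 ± 135.7 in KO and 2551 ± 150.2 in WT, and next came Lrig2, with 1413 ± 53.5 in KO and 1556 ± 173.9 in WT (SD, n = 4 each). With the replicate block Lrig1, encoding a membrane protein that promotes receptor degradation, passed (adjusted p = 0.0444, against 0.0522, limma-trend).

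Lists of genes for 2 known inducers of Areg, cyclic AMP and the YAP coactivator, were also tested. Of 8 cAMP-responsive genes none was called, 1 was higher at an unadjusted p under 0.05, and 2 rose with the replicate block. In libraries 1 and 2 alone 4 rose and none fell, beside 12.5% and 11.1% of all genes. In libraries 3 and 4 alone 2 rose and 3 fell, beside 11.5% and 11.5% of all genes. Nr4a1, a nuclear receptor gene of this list, had values of 428, 581, 10892 and 10962 in KO and 243, 95, 20719 and 19633 in WT, so it followed the set of libraries. Fosb, encoding an AP-1 subunit, did likewise, with values of 1085, 996, 16935 and 15351 in KO and 866, 377, 39879 and 37584 in WT. Of 9 genes of the YAP list 1 rose, Yap1, which encodes the coactivator itself. None of the others passed in the limma-trend fit. Yap1 had values of 260, 163, 233 and 205 in KO and 83, 145, 126 and 148 in WT (log2 difference of 0.79 ± 0.22, adjusted p = 0.0351, limma-trend). Its call was lost with the replicate block (adjusted p = 0.0563) and without KO replicate 1, 3 or 4 or WT replicate 1 or 3 (highest adjusted p = 0.0923), and in libraries 1 and 2 alone (adjusted p = 0.0972, limma). With the replicate block 5 others of the list rose, among them Ctgf, encoding a matricellular protein, with values of 489, 393, 638 and 826 in KO and 202, 157, 354 and 499 in WT. Summed stellate and fibroblast markers, which make such proteins, ranged from 7218 to 16146 in KO and from 1642 to 8111 in WT, and 1 of 8 was called higher. Their part in these values was not tested.

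**Figure D4:**
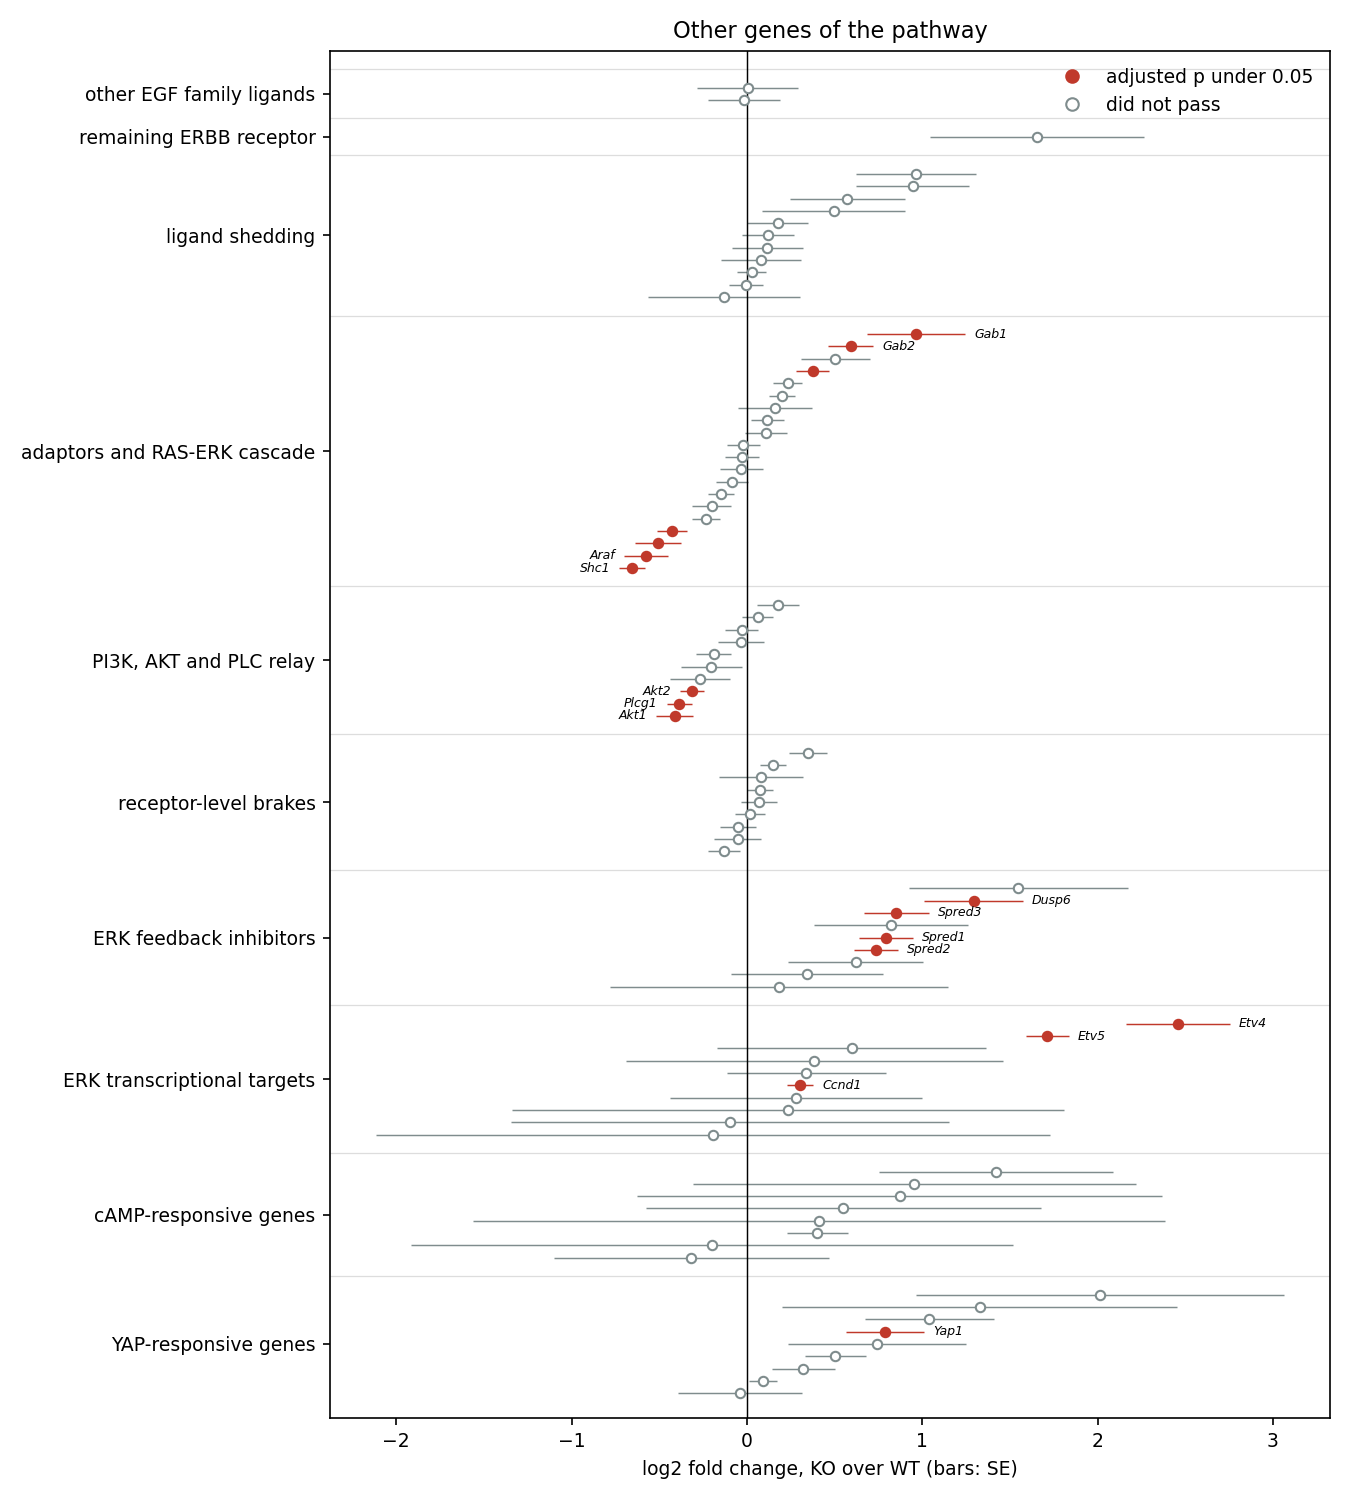
Log2 fold change of KO over WT (x axis, bars are standard errors) for 89 other genes of the pathway, 1 row per gene, in 10 lists, with names beside up to 4 genes of each list that passed. Filled points passed an adjusted p of 0.05 in limma-trend: Etv4, Etv5, Dusp6 and the 3 Spred genes lie to the right, and Shc1, Araf, Akt1, Akt2 and Plcg1 to the left.

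Immune cells can also make amphiregulin and heparin-binding EGF. Summed macrophage markers ranged from 2551 to 3328 in KO and from 1793 to 3423 in WT, and none of 7 measured was called (limma-trend; 1 higher and 0 lower at an unadjusted p under 0.05). Of 12 markers of T, NK and innate lymphoid cells 2 were measured, Cd4 and Il7r, with a sum of 40 to 97 in KO and 26 to 133 in WT. The part of immune cells in the Areg and Hbegf values was not tested. Summed acinar markers ranged from 142152 to 424498 in KO and from 19898 to 285369 in WT, and none of 9 measured was called (limma-trend; 4 higher and 0 lower at an unadjusted p under 0.05). The median log2 difference of the 9 was 1.62, and their part in the Areg values was not tested.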

How the data were processed

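Bulk RNA sequencing was analysed from hand-picked islets of 4 KO and 4 WT mice, grouped by the labels' genotype. Per the submitters' processing notes, bcl2fastq 2.20, STAR 2.5.3a, RSEM 1.2.31, edgeR 3.16.15 and build GRCm38.p5 were used. The sources used here state neither their settings nor whether counting used strand. The deposited values are whole numbers, counts normalized and then rounded by the authors, and were handled as a score rather than as raw counts. The authors' deposited table also gives log2 fold changes and p-values, used as an alternative only. Depth is unknown, and n limits precision.

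From the values, log2(value + 1) was fitted with limma 3.58.1 (trend, R 4.3.3) for genes at 1 or more in at least 4 libraries (14121 of 14126), with Benjamini-Hochberg adjustment over all of them and a threshold of 0.05. The method was tested on simulated counts with a fixed dispersion, no split between sets of libraries and no outlying library. That test therefore does not cover the split or KO replicate 1 seen here. The 8 genes and the lists were chosen with earlier results of these data known. Genes named are the 8, Ern1, Esr1, per list up to 4 called genes of largest change or else the 2 of highest mean, the 5 most like Areg, and the most abundant markers; some genes that passed are not reported here. Map2k2, Ptpn11, Dusp4, Dusp5, Spry1, Spry2, Spry4, Lrig1, Ctgf, the ERK targets that did not pass, the ductal genes other than Spp1 and Krt8, and the neighbours of Areg were named after their values were seen. Libraries of the same replicate number deviated together from their group means (r of 0.327, 0.583, 0.664 and 0.381 over 13081 genes). Libraries of different number were not compared in this way. The split between sets of libraries could also make these r values positive, so they cannot show that a number pairs libraries. The replicate block was used as an alternative fit, and no label says what a number shares. Loci and exon lengths came from GENCODE M21 (GRCm38), promoters from RefSeq (GRCm38.p6). Alternatives varied the pseudocount, filter, scaling, trend, block, set of libraries and libraries left out.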

Additional observations from a re-analysis of the deposited data

Results flagged for a closer look

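In 6 of the 68 groups of 4 libraries looked at, 1 library stood far from the other 3 by Dixon's criterion, where about 3.4 would by chance. KO replicate 1 was such a library for Btc, with a value of 143, for Erbb2, with 350, and for Erbb4, with 184. WT replicate 1 was one for Adam9, with 2419, WT replicate 3 for Shc1, with 7500, and KO replicate 4 for Etv5, with 3217. Errfi1 was higher in both KO than in both WT libraries in libraries 1 and 2 (log2 difference of 0.396) and lower in both KO than in both WT libraries in libraries 3 and 4 (log2 difference of -0.2129), and this contrast between the sets was not tested.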

How the results depend on the processing

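The count of pathway genes higher in KO, 11 in the limma-trend fit, was 23 with the replicate block, 29 with a term for the set of libraries, 25 in libraries 1 and 2 alone, 19 in libraries 3 and 4 alone and 28 in the authors' deposited table. It ranged from 7 (without KO replicate 4) to 13 when 1 library was left out. Of all genes, 14.2% were higher with the replicate block, 17% with the set term and 16.2% in the deposited table. The shares were 12.5% in libraries 1 and 2 alone and 11.5% in libraries 3 and 4 alone. The count lower, 7, was 4 in libraries 1 and 2 alone, 14 in libraries 3 and 4 alone and 5 to 7 with 1 library left out. Of all genes, 11.1% were lower in libraries 1 and 2 alone and 11.5% in libraries 3 and 4 alone. Over all genes 1562 were higher and 1385 lower; with the set as a term the counts were 2400 and 2102, and with 1 library left out 1121 to 1684 higher and 863 to 1599 lower (909 lower without KO replicate 4, 863 without WT replicate 2). Equal totals without hormone and mitochondrial genes gave 1746 higher and 1017 lower. The log2 difference of Areg was 8.71 with a pseudocount of 0.1 and 6.38 with 5, and that of Egfr -1.79 in libraries 1 and 2 and -1.37 in libraries 3 and 4. Nr4a1 was at 1.71 in libraries 1 and 2 alone (adjusted p = 0.0269, limma) and turned to -0.88 in libraries 3 and 4 alone (adjusted p = 0.00151, limma). Among the pathway genes named by rule, Esr1 and Ern1, the replicate block changed only the calls of Erbb4, Timp3 and Yap1. The other genes named by rule were not compared in this way. A filter at a mean of 10 removed no gene. Beyond the constructions named, the cause of each move was not tested.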
